A study of Mus musculus with 5 samples.

Results

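The genes described here encode the proteins of the cytosolic ribosome, and they were followed in the mouse ventromedial hypothalamus (VMH) after electroconvulsive seizure (ECS). Members were every symbol that starts with Rpl or Rps and a digit, together with Rplp0, Rplp1, Rplp2 and Rpsa, without the S6 kinase family (Rps6k) and pseudogenes. By the array's probe set annotation 48 of 12393 named genes met this rule, on 100 probe sets that carry 1 symbol. They comprised 20 proteins of the small subunit, 20 of the large subunit, 2 of the P-stalk and 6 paralogs, the last being relatives of core ribosomal proteins with symbols such as Rpl22l1. A further 102 probe sets name a ribosomal protein gene together with other symbols and were kept apart, unnamed.

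C57Bl/6 mice, anesthetized with isoflurane, were given ECS at 25 mA through ear clips, and the VMH was cut by laser from frozen sections. The 5 groups were 6 h after the last of 7 shocks, 2 h after the last of 7 shocks, 6 h after 1 shock, 2 h after 1 shock, and sham, in which animals were handled alike without a shock and collected at 2 h. Each group had 1 Affymetrix array, hybridised with RNA pooled from 2 or 3 animals and amplified from 2 ng. A second set of animals, mentioned in the study's design, was not analysed here. The titles and sources name the VMH, whereas the short sample descriptions name the PVN. With 1 array a group no difference has a replicate check, no test was possible, and every value below compares single arrays. The 6 h arrays have no sham of their own time. Ages, sexes and the spacing of the 7 shocks were not stated.

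A cytosolic ribosome joins a small subunit, which reads the mRNA, to a large subunit, which links amino acids, and the P-stalk on the large subunit recruits elongation factors. Ribosomal protein mRNAs are abundant in neurons and glia, and their products are made in matched amounts in growing cells. Most of these mRNAs begin with a 5' terminal oligopyrimidine (TOP) tract, through which the mTOR pathway and the RNA-binding protein Larp1 set how well they are translated. That control acts on translation and is not read by an array, which measures mRNA.

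The start regions show what these genes share in sequence. RefSeq (GRCm38.p6) promoter windows of 250 bases before to 50 bases after the annotated start were matched for 42 of the 48 genes, 50 windows in all. A TOP start was defined as C at the annotated start followed by at least 4 bases that are each C or T. It was found in 8 of the 50 windows, or 16%, against 2.51% of 32851 windows of all genes. The 8 genes were Rpl14, Rpl35, Rpl38, Rplp2, Rps10, Rps18, Rps27 and Rps6. With such a run starting within 5 bases of the annotated start on either side the shares were 42% and 18.3%. Short motifs were searched on both strands of the whole window, and each window was scored as with or without the motif. CTTCCG, a core of ETS family sites, was in 60% of member windows and 16.9% of all windows. ATGGCGG, part of the YY1 motif, was in 14% and 4.05%, and GGGCGG, the GC box, in 52% and 35.7%. These are matches of letters, and no binding was measured. The 60-base stretches below run 5' to 3', 40 bases before the start and 20 from it, with the TOP run in capitals. They are shown for members of both subunits and the P-stalk, and for 2 paralogs without such a run at their start. In Rpl22l1 a run of this kind begins within 5 bases after the start and is left in small letters.
Rps10, chr17:27635225-27635284, minus strand: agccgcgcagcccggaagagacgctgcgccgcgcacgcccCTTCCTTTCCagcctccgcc
Rps6, chr4:86857348-86857407, minus strand: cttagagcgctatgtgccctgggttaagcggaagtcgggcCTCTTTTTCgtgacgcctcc
Rps18, chr17:33955646-33955705, minus strand: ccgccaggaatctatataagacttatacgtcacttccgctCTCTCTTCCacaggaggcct
Rpl35, chr2:39005112-39005171, minus strand: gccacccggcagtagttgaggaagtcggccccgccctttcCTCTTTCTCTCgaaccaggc
Rpl38, chr11:114668540-114668599, plus strand: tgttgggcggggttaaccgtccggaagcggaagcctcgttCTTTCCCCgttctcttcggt
Rplp2, chr7:141447611-141447670, plus strand: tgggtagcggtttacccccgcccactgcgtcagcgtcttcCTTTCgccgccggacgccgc
Rpl22l1, chr3:28805468-28805527, plus strand: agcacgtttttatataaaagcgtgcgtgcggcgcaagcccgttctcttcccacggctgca
Rpl7l1, chr17:46782637-46782696, minus strand: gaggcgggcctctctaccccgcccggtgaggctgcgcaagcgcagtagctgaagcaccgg

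The values are MAS5 signals, a summary of a probe set's brightness on a linear scale. Probe sets in the top 50% by mean signal were kept, and the arrays were brought to a common median over these, called centring below, because the deposited arrays stood at different levels. On the log2 scale the arrays lay 0.49 (7 shocks, 6 h), 0.51 (7 shocks, 2 h), 0.40 (1 shock, 6 h) and -0.13 (1 shock, 2 h) from sham before centring. All differences below are therefore relative to the typical gene of the same array, as log2 of the centred signal with a pseudocount of 1.2. A gene was counted as changed at 2-fold, a log2 difference of 1. The Gapdh 3' to 5' signal ratio, which reflects how intact the RNA and its copies are, was 5.37 to 5.88 on 3 arrays, 8.77 at 2 h after 1 shock and 6.67 in sham. That of actin was 0.593 and 0.783 after 7 shocks (6 h and 2 h), 1.10 and 0.889 after 1 shock (6 h and 2 h) and 0.799 in sham, so that the 6 h arrays differed by it. The dap poly-A control stood at 15.6 times the array's median signal at 6 h after 1 shock and at 5.00 to 7.41 times on the other arrays.

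Of the 48 genes, 43 passed the filter on low values and 6658 of all named genes did. Rpl37, Rpl39, Rps27, the testis paralog Rpl39l and the striated muscle paralog Rpl3l did not. The filter lay at a mean signal of 28.5. Just inside were Rps25 at 54.2 and Rpl7l1 and Rps4l at 61.8 each, and just outside was Rpl39 at 28.1, followed by Rps27 at 24.8, Rpl37 at 6.80, Rpl39l at 3.64 and Rpl3l at 3.46. In deposited signal Rpl39, a small protein at the tunnel through which the new chain leaves, read 31.6 and 50.6 after 7 shocks (6 h and 2 h), 35.9 and 7.3 after 1 shock (6 h and 2 h) and 15.2 in sham. Rps27, a zinc-binding protein of the small subunit, read 14.8 and 36.0 after 7 shocks, 42.6 and 6.1 after 1 shock and 24.5 in sham, in the same order of times. Signals this low were not ranked between arrays. All values that follow concern the 43 that passed.

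Most members were among the brightest features of the array, 32 of 43 in the top 10% of genes, with a median brightness percentile of 96.7. Brightness also depends on the probes, so it does not rank mRNA levels between genes. The brightest were Rpl13a, Rpl38, Rps29, Rps28 and Rpsa. Rpl13a, often used as a qPCR reference gene, had centred signals of 6832 and 5922 after 7 shocks (6 h and 2 h), 7427 and 7439 after 1 shock (6 h and 2 h) and 6479 in sham. Its lowest array was 7 shocks at 2 h and its highest 1 shock at 2 h, a span of 0.33 on the log2 scale. Its 3 dimmer probe sets were highest at 6 h after 1 shock instead and had spans of 0.64 to 0.89. Rpl38, a large subunit protein that in mouse is needed for the translation of a set of Hox mRNAs, read 5948 and 5161 after 7 shocks (6 h and 2 h), 7005 and 7288 after 1 shock (6 h and 2 h) and 6379 in sham. Rpsa, which doubles as a precursor of the laminin receptor, read 3359 and 3079 after 7 shocks (6 h and 2 h), 4042 and 3807 after 1 shock (6 h and 2 h) and 3892 in sham. For both genes the 7-shock arrays were the lowest, on Rpsa's dim second probe set as well.

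The signals varied little between arrays. The span from a member's lowest to its highest array had a median of 0.54 on the log2 scale, against 0.99 over all genes and 0.46 over the brightest 10%. It was under 1 for 39 of 43 members. The steadiest were Rps24, Rps4x, Rps28, Rpl7a and Rps15. Rps24, a small subunit protein mutated in some patients with Diamond-Blackfan anaemia, a red cell disorder, read 3349 and 2895 after 7 shocks (6 h and 2 h), 3210.5 and 3136 after 1 shock (6 h and 2 h) and 3055 in sham, a span of 0.21. Rps4x, encoded on the X chromosome, read 1452 and 1524 after 7 shocks (6 h and 2 h), 1694 and 1475 after 1 shock (6 h and 2 h) and 1542 in sham. Rpl7a read 1014 and 901 after 7 shocks (6 h and 2 h), 1095 and 1084 after 1 shock (6 h and 2 h) and 1059 in sham. Over these 5 genes the span of the brightest probe set was 0.21 to 0.28. Dimmer ones spanned more in some, up to 0.53 in Rps24 and 0.83 in Rps15, and the median over 39 further probe sets of members was 0.71.

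**Figure D1:**
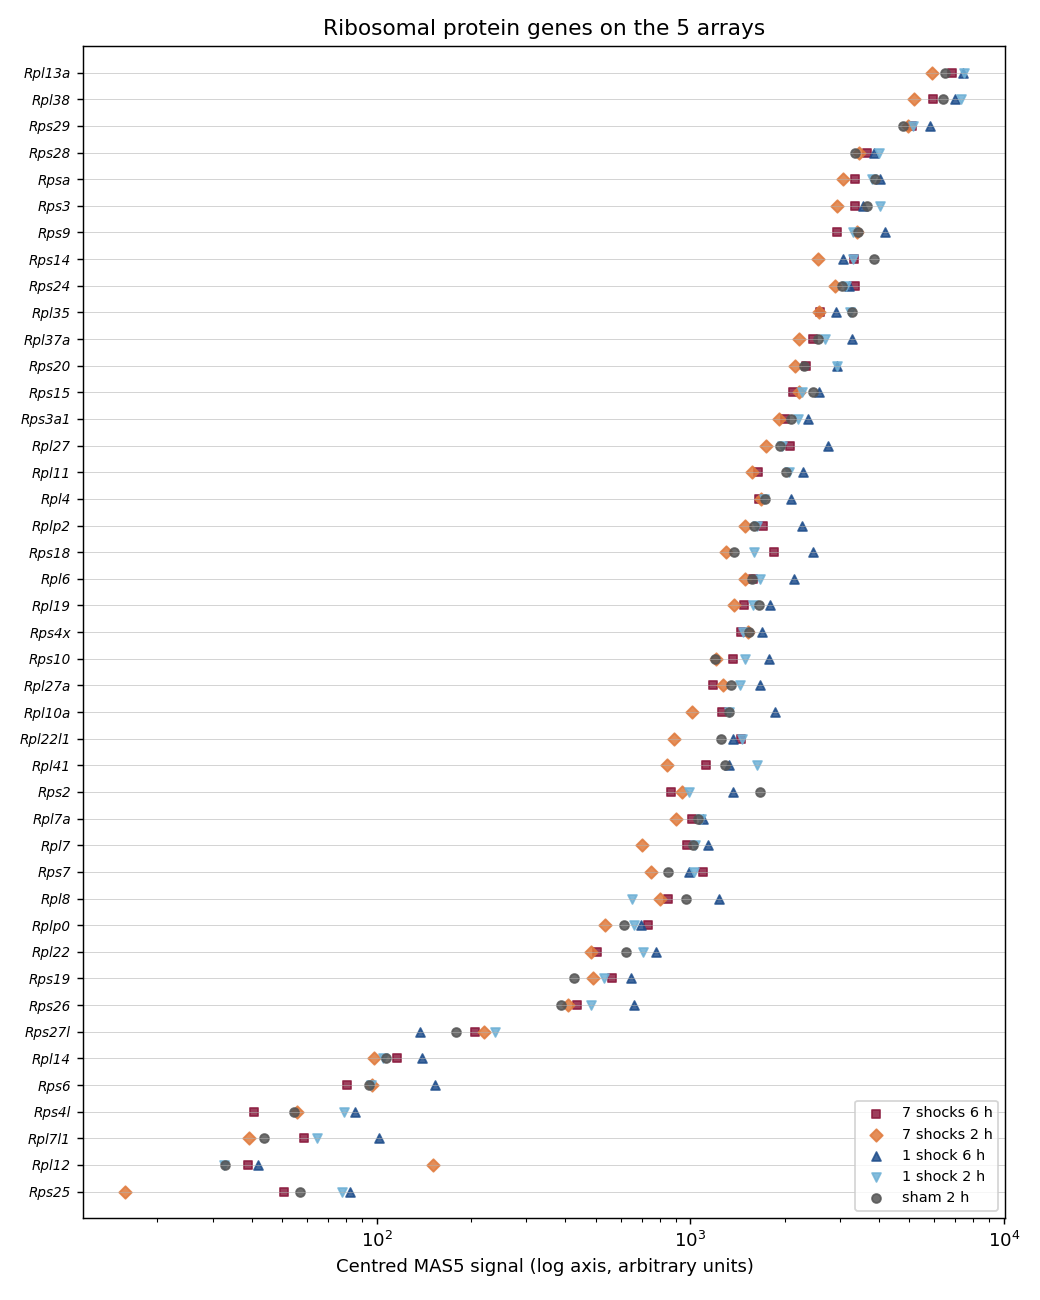
Centred MAS5 signal (log axis, arbitrary units) of the 43 ribosomal protein genes that passed the filter, 1 row a gene, with a symbol for each of the 5 arrays. Most genes hold their place within a narrow band, and Rps25 and Rpl12 have 1 point far from the others. The array of 7 shocks at 2 h is the lowest point in 27 rows, a rank that rests on the centring.

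Repeated and single ECS were compared at each time. At 2 h the ribosomal protein genes were lower after 7 shocks than after 1 relative to the typical gene, with a median log2 difference of -0.27 (0.37 without centring, where all genes had 0.64). The centred median was -0.00 over all genes and -0.09 over the brightest 10%. Below 0 were 38 of 43 members, where 50.1% of all genes were. At 6 h the median was again -0.27 and 37 of 43 members were below 0, against -0.05 and 53.1% for all genes, and -0.13 for the brightest 10%. Here the sign held without centring (-0.19 for the members and 0.04 for all genes). These 2 comparisons share no array. The sizes were small: at 2 h 1 member was at least 2-fold higher (7.67% of all genes) and 1 at least 2-fold lower (7.09%), and at 6 h none was higher (8.61%) and 1 was lower (8.97%).

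Taken gene by gene, 32 of 43 members were below 0 at both times, or 74.4%, against 27.9% of all genes and 42.6% of the brightest 10%. Both 7-shock arrays lay below both 1-shock arrays in 27 of 43 members (62.8%), against 19.7% of all genes and 34.1% of the brightest 10%. The reverse order occurred in 0 of 43 members, against 17.1% of all genes. These counts rest on the centring. Without centring 39 of 43 members were above 0 at 2 h, so the counts of 32 and 27 would not hold. How far a member lay below 0 at 2 h did not track how far it lay at 6 h. Across the 43 genes, which share their arrays and are not independent, Pearson's r was 0.17 and Spearman's rho -0.02.

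**Figure D2:**
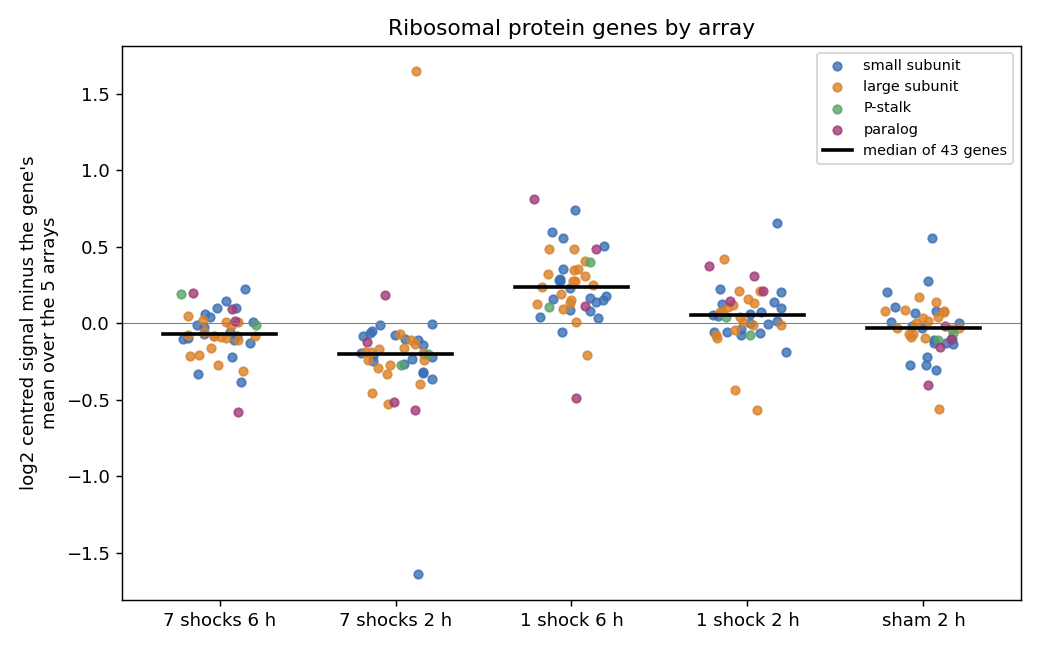
Log2 centred signal of each of the 43 genes minus its own mean over the 5 arrays (vertical axis), by array (horizontal axis). Points are genes coloured by group, spread sideways for visibility, and the black lines are medians, which lie at -0.07 and -0.20 after 7 shocks (6 h and 2 h), 0.24 and 0.05 after 1 shock (6 h and 2 h) and -0.03 in sham. Without centring the order of the 2 arrays at 2 h after ECS turns round.

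In the large subunit all 18 measured members were lower after 7 shocks than after 1 at 6 h, with a median of -0.31, although Rpl22, Rpl35, Rpl37a, Rpl41 and Rpl7 each had a further probe set above 0. At 2 h 16 of 18 were lower, with a median of -0.27. The 2 exceptions at 2 h were Rpl12 and Rpl8, a protein near the catalytic centre. Further members are named here and in the next paragraphs for their values, which were seen first. Rpl22, which binds RNA and is a partner to its paralog Rpl22l1, read 505 and 484 after 7 shocks (6 h and 2 h), 777 and 706 after 1 shock (6 h and 2 h) and 625 in sham. Rpl11, which can bind the p53 regulator Mdm2 when ribosomes are not being made, read 1642 and 1576 after 7 shocks (6 h and 2 h), 2297 and 2063 after 1 shock (6 h and 2 h) and 2018 in sham. In both genes the 7-shock values were the lowest, and sham lay between the 7-shock and the 1-shock values, but a dim second probe set of Rpl22 stood at 0.63 at 2 h. Rpl41, among the smallest of ribosomal proteins, read 1126 and 845 after 7 shocks (6 h and 2 h), 1332 and 1630.3 after 1 shock (6 h and 2 h) and 1287 in sham, a difference of -0.95 between 7 shocks and 1 at 2 h and of -0.24 at 6 h, where its other probe sets lay at -0.69 and 1.84. Rpl10a read 1266 and 1013 after 7 shocks (6 h and 2 h), 1865 and 1325 after 1 shock (6 h and 2 h) and 1333 in sham, with differences of -0.39 and -0.56 at 2 h and 6 h.

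In the small subunit 16 of 19 members were lower after 7 shocks than after 1 at each time, with medians of -0.21 at 2 h and -0.27 at 6 h. Rps20 read 2346 and 2160.0 after 7 shocks (6 h and 2 h), 2949 and 2943 after 1 shock (6 h and 2 h) and 2306 in sham, so that its 1-shock arrays stood above the other 3. Rps3, a protein at the mRNA entry site that also acts in DNA repair, read 3346 and 2934 after 7 shocks (6 h and 2 h), 3569 and 4022 after 1 shock (6 h and 2 h) and 3658 in sham. Rps6, whose phosphorylation by S6 kinase is the common marker of mTOR activity, read 80.7 and 96.4 after 7 shocks (6 h and 2 h), 154 and 96.3 after 1 shock (6 h and 2 h) and 94.6 in sham. Its difference was 0.00 at 2 h and -0.93 at 6 h, and only the array of 6 h after 1 shock stood apart. The exceptions with a value above 0 were Rps4x, Rps6 and Rps9 at 2 h, the first of these with 0.05, and Rps14, Rps24 and Rps7 at 6 h. The largest of those values was 0.14, for Rps7.

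Other core members ran as follows. Rpl27, a large subunit protein, read 2078 and 1749.7 after 7 shocks (6 h and 2 h), 2741 and 1962 after 1 shock (6 h and 2 h) and 1939 in sham, and Rpl6 read 1585 and 1500.1 after 7 shocks (6 h and 2 h), 2139.9 and 1671 after 1 shock (6 h and 2 h) and 1578 in sham. In both 1 shock at 6 h was the highest array, as on the 2 other probe sets of Rpl27. Rpl7, the core relative of Rpl7l1, read 974 and 700.0 after 7 shocks (6 h and 2 h), 1141 and 1034 after 1 shock (6 h and 2 h) and 1017 in sham, with 7 shocks at 2 h alone low. Its 2 dimmer probe sets did not show this. On 1 of them both 7-shock arrays were the lowest, and on the other sham was. Rps7 read 1095 and 751 after 7 shocks (6 h and 2 h), 992 and 1032 after 1 shock (6 h and 2 h) and 850.4 in sham, its highest array being 7 shocks at 6 h on both of its probe sets. Rps9, which helps to set the accuracy of decoding, read 2939 and 3415 after 7 shocks (6 h and 2 h), 4168 and 3293 after 1 shock (6 h and 2 h) and 3423 in sham, with 7 shocks at 6 h lowest, but its second probe set was highest there and lay at 0.12 between 7 shocks and 1 at 6 h. Rpl14, Rpl19, Rpl27a, Rpl37a, Rpl4, Rps15 and Rps3a1, 7 genes in all, had their highest value at 6 h after 1 shock. Between 7 shocks and 1 these genes differed by -0.28 to -0.03 at 2 h and by -0.49 to -0.24 at 6 h.

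The P-stalk genes differed between the times. Rplp0 read 735 and 534 after 7 shocks (6 h and 2 h), 695 and 662 after 1 shock (6 h and 2 h) and 616 in sham, a difference of -0.31 between 7 shocks and 1 at 2 h and of 0.08 at 6 h. Rplp2 read 1705 and 1496 after 7 shocks (6 h and 2 h), 2271 and 1633 after 1 shock (6 h and 2 h) and 1599.7 in sham, with -0.13 and -0.41. Both genes had their lowest value at 2 h after 7 shocks. The highest was 7 shocks at 6 h for Rplp0 and 1 shock at 6 h for Rplp2.

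**Figure D3:**
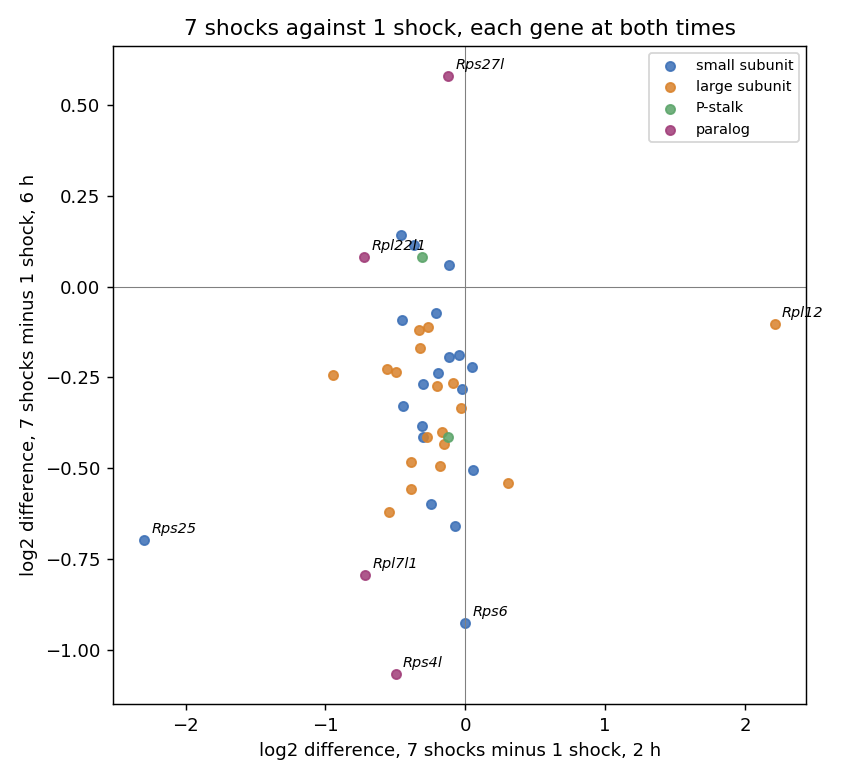
Each of the 43 genes at its log2 difference between 7 shocks and 1 shock at 2 h (horizontal axis) and at 6 h (vertical axis), coloured by group. Most points, 32 of 43, lie in the lower left field, Rps25 and Rpl12 lie far out on the horizontal axis and Rps27l is the highest on the vertical one; without centring the horizontal values move up by 0.64.

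Some other features of the arrays moved in the same direction and others did not. The 3 control probe sets for 18S ribosomal RNA differed by -0.31, -0.31 and -0.22 between 7 shocks and 1 at 2 h, and by -0.16, -0.04 and -0.14 at 6 h. Of the endothelium and pericyte markers 4 of 7 were measured, with Pecam1, Cdh5 and Flt1 below the filter. Their summed centred signal was 412 and 269 after 7 shocks (6 h and 2 h), 549 and 355 after 1 shock (6 h and 2 h) and 367 in sham, so that it was lower after 7 shocks at both times. At 6 h 2 of the 4 were at least 2-fold lower (50%, against 8.97% of all genes). VMH markers (4 of 5, without Nkx2-1) summed to 2541 and 2785 after 7 shocks (6 h and 2 h), 3106 and 2076 after 1 shock (6 h and 2 h) and 1912 in sham. At 2 h all 4 of them were higher after 7 shocks than after 1, with a median of 0.41, opposite to the ribosomal protein genes, and at 6 h 3 of 4 were lower, with -0.24. Neuron markers, 8 of 8 measured, summed to 16015 and 15469 after 7 shocks (6 h and 2 h), 14405 and 15654 after 1 shock (6 h and 2 h) and 13734 in sham, higher after 7 shocks at 6 h. There 2 of the 8 were at least 2-fold higher (25%, against 8.61% of all genes). At 2 h the neuron sum was slightly lower after 7 shocks, although 5 of the 8 genes were higher, with a median of 0.28. Astrocyte markers, 7 of 7 measured, summed to 3081 and 2736 after 7 shocks (6 h and 2 h), 2798 and 3240 after 1 shock (6 h and 2 h) and 3028 in sham, higher after 7 shocks at 6 h and lower at 2 h. Microglia markers (6 of 8, without Cx3cr1 and C1qa) summed to 1489 and 1582 after 7 shocks (6 h and 2 h), 1519.6 and 1334 after 1 shock (6 h and 2 h) and 1551 in sham. Oligodendrocyte markers (5 of 6, without Mog) summed to 5172 and 5050.3 after 7 shocks (6 h and 2 h), 5678 and 5617 after 1 shock (6 h and 2 h) and 4944 in sham. The microglia sum was higher after 7 shocks than after 1 at 2 h, although 4 of the 6 genes were lower there, with a median of -0.23. Of the 6, 2 were at least 2-fold lower (33.3%, against 7.09% of all genes). The oligodendrocyte sum was lower at both times, although 3 of the 5 genes were higher at 2 h, with a median of 0.30. The 1 ependyma marker on the array was below the filter. Fewer cells of a type and less RNA per cell cannot be told apart in such tissue, and the part of these features in the ribosomal protein values was not tested.

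Against sham the 4 ECS arrays share 1 reference array, so their values are given side by side. At 2 h after 7 shocks the median was -0.14 with 34 of 43 members below 0 (49.6% of all genes), and 0.37 without centring, where all genes had 0.51. At 6 h after 7 shocks it was -0.06 with 24 of 43 below 0 (48.9% of all genes), and 0.42 without centring, where all genes had 0.50. At 6 h after 1 shock it was 0.27 with 38 of 43 above 0 (54.6% of all genes), and at 2 h after 1 shock 0.07 with 30 of 43 above 0 (50.3% of all genes). The brightest 10% of genes had medians of 0.02 and 0.04 after 7 shocks (2 h and 6 h) and of 0.17 and 0.08 after 1 shock (6 h and 2 h). The 2 h median after 1 shock was -0.05 without centring. The 6 h median after 1 shock was 0.12 with quantile normalization and 0.09 with centring on the brightest genes.

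At least 2-fold higher than sham were 1 member at 6 h after 1 shock (7.24% of all genes), 1 at 2 h after 7 shocks (7.06%) and 0 in the other comparisons with sham (6.22% at 2 h after 1 shock and 7.39% at 6 h after 7 shocks). At least 2-fold lower was 1 member at 2 h after 7 shocks (6.92%), and 0 at 6 h after 7 shocks (7.28%), at 6 h after 1 shock (7.75%) and at 2 h after 1 shock (6.92%). In the large subunit 17 of 18 members were below sham at 2 h after 7 shocks, with a median of -0.25, and 17 of 18 above it at 6 h after 1 shock, with 0.29. The small subunit had 13 of 19 below and 16 of 19 above in the same comparisons, with -0.09 and 0.22.

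Sham itself lay within the range of the ECS arrays for most members. It was the lowest of the 5 arrays in 5 of 43 (19.6% of all genes) and the highest in 3 of 43 (16.8%). The array of 7 shocks at 2 h was the lowest in 27 of 43 (20.2% of all genes, and 27.2% of the brightest 10%). The array of 1 shock at 6 h was the highest in 29 of 43 (25.9%, and 40.2% of the brightest 10%). The low rank of 7 shocks at 2 h rests on the centring. Without centring 39 of 43 members were higher on that array than at 2 h after 1 shock.

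The 5 members above sham on every ECS array were all of the small subunit. Rps19, the gene most often mutated in Diamond-Blackfan anaemia, read 564 and 490.5 after 7 shocks (6 h and 2 h), 645 and 533 after 1 shock (6 h and 2 h) and 427 in sham. Its sham value was the lowest and its differences from sham ran from 0.20 to 0.59. Rps26, also a Diamond-Blackfan gene, read 437 and 407 after 7 shocks (6 h and 2 h), 661 and 482 after 1 shock (6 h and 2 h) and 386 in sham, and Rps10 read 1368 and 1204 after 7 shocks (6 h and 2 h), 1785 and 1492 after 1 shock (6 h and 2 h) and 1198 in sham. In both genes 7 shocks at 2 h lay next to sham and 1 shock at 6 h was the highest. Rps28 read 3673 and 3450.2 after 7 shocks (6 h and 2 h), 3866 and 3997 after 1 shock (6 h and 2 h) and 3347 in sham, and Rps29, a zinc-binding protein of the small subunit, read 5097 and 4962 after 7 shocks (6 h and 2 h), 5808 and 5127 after 1 shock (6 h and 2 h) and 4774 in sham. For Rps10, Rps28 and Rps29 another probe set lay below sham at 2 h after 7 shocks, so the order on every array holds for Rps19 and Rps26 alone, each measured by 1 probe set.

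The 3 members below sham on every ECS array were Rps2, Rps14 and Rpl35. Rps2, at the mRNA entrance of the small subunit, read 868 and 939.9 after 7 shocks (6 h and 2 h), 1371 and 991 after 1 shock (6 h and 2 h) and 1666 in sham. All ECS values were below sham, with differences of -0.94 and -0.83 after 7 shocks (6 h and 2 h) and -0.28 and -0.75 after 1 shock (6 h and 2 h). The gene was measured by 1 probe set. Rps14, whose loss on one chromosome underlies the anaemia of the human 5q- syndrome, read 3329 and 2557 after 7 shocks (6 h and 2 h), 3075 and 3298 after 1 shock (6 h and 2 h) and 3862 in sham, but its other probe set had the opposite sign at 6 h after 1 shock. Rpl35 read 2595 and 2579 after 7 shocks (6 h and 2 h), 2914 and 3234 after 1 shock (6 h and 2 h) and 3271 in sham, and its probe sets differed in sign at 6 h after 7 shocks. The probe sets that stand for these 3 genes all carry the suffix _x_at. So do those of other members, among them the bright Rpl13a and Rpl38, the steady Rps24, and Rps10 and Rps29 above sham. Without probe sets of the suffixes _x_at and _s_at, sham was the highest array in no member.

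Over time, 6 h minus 2 h, members lay above 0 after both numbers of shocks. After 7 shocks the median was 0.13 with 33 of 43 above 0 (51.8% of all genes), and all genes had 0.02. After 1 shock it was 0.18 with 33 of 43 above 0 (54.5%), and all genes had 0.06. The brightest 10% of genes had medians of 0.04 after 7 shocks and 0.07 after 1, with 58.7% and 61.1% above 0. Both comparisons were above 0 in 24 of 43 members, against 27.8% of all genes and 32.9% of the brightest 10%. At least 2-fold higher at 6 h were 1 member after 7 shocks (6.85%) and 0 after 1 shock (8.23%), and at least 2-fold lower were 1 (6.89%) and 0 (7.86%). Rps18, a small subunit protein and common reference gene, read 1849 and 1297 after 7 shocks (6 h and 2 h), 2463 and 1597 after 1 shock (6 h and 2 h) and 1383 in sham. At each number of shocks its 6 h array was the higher, by 0.51 after 7 shocks and 0.63 after 1. Its other probe sets gave 0.34 and 0.30 after 7 shocks but 0.07 and 0.14 after 1. Rpl8 read 847 and 804 after 7 shocks (6 h and 2 h), 1232 and 652 after 1 shock (6 h and 2 h) and 969 in sham, a difference of 0.92 after 1 shock, the largest there, and of 0.08 after 7 shocks.

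Only 4 of 43 members passed 2-fold in any of the 8 comparisons, or 9.30%, against 47.1% of all genes and 4.95% of the brightest 10%. All 4 were below the median brightness of the genes kept, as were Rps6 and no other member. Rps25, a small subunit protein needed for some forms of internal initiation, read 50.8 and 15.8 after 7 shocks (6 h and 2 h), 82.4 and 77.6 after 1 shock (6 h and 2 h) and 56.9 in sham. The array of 7 shocks at 2 h alone was low, at -2.29 from 1 shock and -1.85 from sham at that time. Rpl12, next to the base of the P-stalk, read 39.0 and 152 after 7 shocks (6 h and 2 h), 41.9 and 32.7 after 1 shock (6 h and 2 h) and 32.8 in sham. It went the other way, with the same array alone high, at 2.21 from 1 shock and from sham. Each was measured by 1 probe set. Without the array of 7 shocks at 2 h neither gene passed 2-fold, since their remaining differences ran from -0.70 to 0.54 and from -0.10 to 0.36.

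The paralogs did not follow one pattern. Rpl22l1, which can replace Rpl22 in the ribosome, read 1449 and 886 after 7 shocks (6 h and 2 h), 1369 and 1464 after 1 shock (6 h and 2 h) and 1250.0 in sham, low at 2 h after 7 shocks alone. Rpl7l1, a relative of Rpl7, read 58.8 and 39.2 after 7 shocks (6 h and 2 h), 102 and 64.4 after 1 shock (6 h and 2 h) and 43.9 in sham. It was 1.22 above sham at 6 h after 1 shock, but its second probe set lay at -0.72 there and at -2.70 at 2 h after 1 shock, so its direction is uncertain. Rps4l, a relative of Rps4x, read 40.6 and 55.8 after 7 shocks (6 h and 2 h), 85.2 and 78.7 after 1 shock (6 h and 2 h) and 54.5 in sham, and its difference between 7 shocks and 1 was -1.07 at 6 h and -0.50 at 2 h. Rps27l, a p53 target that resembles Rps27, read 206 and 219.5 after 7 shocks (6 h and 2 h), 138 and 239 after 1 shock (6 h and 2 h) and 179 in sham. Its lowest array was 1 shock at 6 h, where 29 members had their highest. At 6 h it was 0.58 higher after 7 shocks than after 1, and after 1 shock it was 0.80 lower at 6 h than at 2 h. All 3 of its probe sets had these signs. They ran from 0.58 to 1.00 between 7 shocks and 1 at 6 h, and the time differences were -0.80 and -0.83 on the 2 brighter ones and just past 2-fold lower on the dimmest.

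The further kept probe sets of the same genes, 39 over 20 members, were lower after 7 shocks than after 1 in 36 of 39 at 2 h and in 27 of 39 (69.2%) at 6 h, a smaller share than among the genes at 6 h. Their medians were -0.32 and -0.17. Among the 20 members with several kept probe sets, all probe sets had one sign in 16 at 2 h and in 12 at 6 h. Rps20 had 2 bright probe sets at -0.45 and -0.40 and a dim one at -1.52 at 2 h. The 102 probe sets with several symbols share no row with the named genes, although many detect copies of the same sequences. Of these, 90 passed the filter, with medians of -0.23 at 2 h (73 of 90 below 0) and -0.28 at 6 h (78 of 90 below 0). The shares of all genes below 0 were 50.1% and 53.1%. In the 90, after centring, 7 shocks at 2 h was the lowest array in 46 (20.2% of all genes) and 1 shock at 6 h the highest in 63 (25.9%).

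Other genes of protein synthesis were set beside the ribosomal proteins. The elongation factors and other TOP mRNAs outside the symbol rule, 17 of 17 measured, had medians of -0.10 between 7 shocks and 1 at both 2 h and 6 h. This list also holds the initiation factors Eif3e, Eif3f, Eif3h and Eif4b, and Fau, so it is not free of ribosomal proteins. Below 0 were 9 and 12 of 17, against 50.1% and 53.1% of all genes. None was past 2-fold, where 7.09% to 8.97% of all genes were in each direction. Fau, which encodes a small subunit protein fused to a ubiquitin-like part and lies outside the symbol rule, read 900 after 7 shocks and 1238 after 1 shock at 2 h, a difference of -0.46. At 6 h it read 1013 after 7 shocks and 1599 after 1, a difference of -0.66, the lowest of the list. Pabpc1, the poly-A binding protein, differed by -0.87 at 2 h, with 62.8 after 7 shocks and 115 after 1. Hnrnpa1, a splicing factor, differed by 0.61 at 6 h, with 565 after 7 shocks and 370 after 1, the reverse of most ribosomal protein genes.

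Mitochondrial ribosomal proteins, 71 of 74 measured, had a median of 0.00 between 7 shocks and 1 at 2 h and of -0.32 at 6 h. Below 0 were 35 and 52 of 71, against 50.1% and 53.1% of all genes. At 6 h 9 of 71 were at least 2-fold lower (12.7%, against 8.97% of all genes) and 2 at least 2-fold higher (2.82%, against 8.61%). Mrps34 read 57.9 after 7 shocks and 172 after 1 shock at 6 h, and Mrpl52 read 473 and 1075. In the other direction Mrps2 read 179.6 after 7 shocks and 63.9 after 1. After centring, 36.6% of them were below 0 at both times, against 74.4% of the cytosolic genes. Between 1 shock at 6 h and sham, by contrast, both families had like medians, 0.30 and 0.27.

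Translation initiation factors, 26 of 27 measured, had medians of -0.12 at 2 h and 0.10 at 6 h between 7 shocks and 1. At 2 h 1 of 26 was at least 2-fold higher, and at 6 h 1 was higher and 1 lower (3.85% each), below the shares of all genes. Eif4e, which binds the mRNA cap, read 305 after 7 shocks and 564 after 1 at 6 h (-0.89), and at 1 shock 6 h it was 1.01 above the sham value of 279.6. Eif3d read 101 after 7 shocks and 227 after 1 at 6 h (-1.17), whereas Eif2b4, of the factor that reloads initiation factor eIF2, read 82.3 and 38.8 (1.08). Eif4ebp2, an mTOR-controlled inhibitor of Eif4e, read 92.7 after 7 shocks and 22.9 after 1 at 2 h (2.01). Ribosome biogenesis genes, 36 of 41 measured, had medians of 0.04 and -0.18. At least 2-fold higher at 2 h were 0 of 36, against 7.67% of all genes. At 2 h 3 of 36 were at least 2-fold lower (8.33%, against 7.09%), namely Ddx21, Sbds and Bop1. At 6 h 4 of 36 were at least 2-fold higher (11.1%, against 8.61%), namely Ltv1, Nip7, Bysl and Bop1, and Nop16 alone was at least 2-fold lower (2.78%, against 8.97%). Bop1, a factor of large subunit rRNA processing, thus had opposite signs, -1.11 at 2 h and 1.15 at 6 h. Of the mTOR pathway 8 of 10 genes were measured, with medians of 0.04 and 0.12 and none past 2-fold in these comparisons. Of all genes 7.09% to 8.97% were past it in each direction. Larp1 stood at -0.75 at 6 h and Mtor at 0.65 at 2 h.

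**Figure D4:**
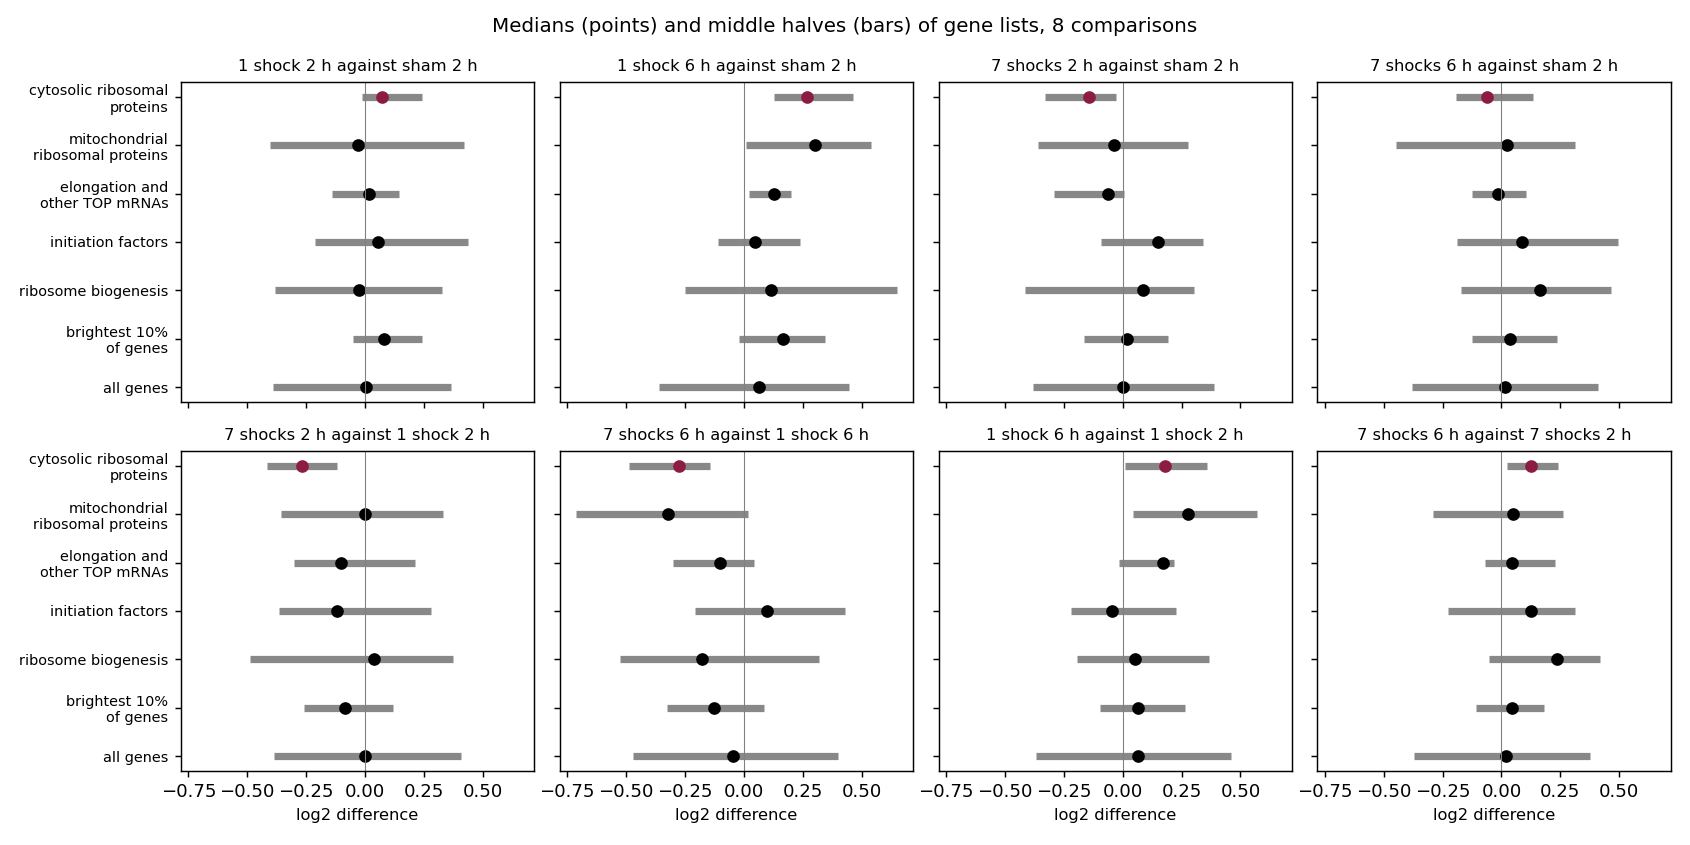
Median (point) and middle 50% (bar) of log2 differences (horizontal axis) for 7 gene lists in each of the 8 comparisons, with the cytosolic ribosomal proteins in red. Their bar lies wholly below 0 between 7 shocks and 1 shock at both times. It lies wholly above 0 between 1 shock at 6 h and sham, as do the bars of the mitochondrial ribosomal proteins and the elongation list. Without centring their 2 h median between 7 shocks and 1 turns to 0.37.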

How the data were processed

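The deposited values were MAS5 signals, linear intensity values of each probe set. The authors made them with MAS5, per the submitters' processing notes, whose version they do not name. The labels do not say whether the pooled animals of the 5 groups were handled in batches. Probe sets were named by the array's annotation; of 22690, 691 carry several symbols and 1555 none. All 48 member symbols matched the RefSeq gene table.

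A pseudocount of 1.2 (10th percentile of all values) was added and log2 taken. Probe sets in the top 50% by mean were kept, each array was centred on its median, and a gene took its brightest kept probe set. All 8 comparisons are differences of single arrays, so the number of arrays limits the precision and no test was run. Named members were those past 2-fold, those of one sign against sham, the 5 brightest, the 5 steadiest and the paralogs; others were added after their values were seen. The members and lists were chosen with earlier results of these data known. The script was tested on simulated data. Alternatives covered rescaling, pseudocount, filter and probe set choice. Python 3.11.15, numpy 2.4.6 and pandas 2.3.3 were used.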

Additional observations from a re-analysis of the deposited data

How the results depend on the processing

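No paired analysis was possible because each group had 1 array. The medians between 7 shocks and 1 were below 0 under all alternatives run, except at 2 h without rescaling, and the medians of 6 h against 2 h were above 0 under all of them; the cause of the shifts given here was not tested. Without rescaling the median turned to 0.37 between 7 shocks and 1 at 2 h (39 members above 0), and against sham to 0.37 and 0.42 after 7 shocks (2 h and 6 h) and to -0.055 at 2 h after 1 shock. It was 0.67 between 1 shock at 6 h and sham (43 above 0, 5 at least 2-fold higher) and 0.71 between 6 h and 2 h after 1 shock (7 at least 2-fold higher). Sham was then the lowest array in 15 members and the highest in 0, and 0 members were at least 2-fold lower between 7 shocks and 1 at 6 h. With quantile normalization the 2 h median between 7 shocks and 1 was -0.16 and that of 1 shock at 6 h against sham 0.12 (29 above 0), sham was highest in 9, and 1 member was at least 2-fold lower at 6 h after 7 shocks. With centring on the brightest 10% of genes, chosen after seeing the data, 1 shock at 6 h against sham gave 0.090 (27 above 0), 7 shocks against 1 at 6 h gave -0.17 with 0 at least 2-fold lower, 7 shocks at 6 h against sham had 1 at least 2-fold lower, and sham was highest in 9.

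Without the filter on low values the median of 7 shocks at 6 h against sham turned to 0.044, 1 shock at 6 h gave 0.44 against sham and 0.30 against 2 h, sham was lowest in 10 members, and the counts past 2-fold that moved were 1 to 4 higher and 1 to 3 lower (1, 2, 3 or 4 members). In the top 25% of probe sets 1 shock at 6 h against sham gave 0.13 (29 above 0), sham was lowest in 3 and highest in 5, 1 member was at least 2-fold lower than sham at 6 h after 7 shocks, and the other counts past 2-fold that the report gives as 1 were 0. With the mean of a gene's probe sets the counts past 2-fold that moved were 0, 1 or 2 and sham was lowest in 2. Without probe sets of the suffixes _x_at and _s_at, the counts at least 2-fold lower that moved were 1 or 2 and sham was highest in 0. With the larger pseudocount of 6.1 no member was at least 2-fold lower between 7 shocks and 1 at 6 h (0), as with core members alone, which also left 0 at least 2-fold higher at 6 h after 1 shock than sham. Without the array of 1 shock at 6 h sham was highest in 11 members. The last 2 choices were made after seeing the data.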
